A study of Mus musculus with 16 samples.

Results

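MiR-34a and miR-34b-5p are the pair of the miR-34 family that was well above background in mouse mast cell cultures. They were chosen by name, as the array's entries for mmu-miR-34a and mmu-miR-34b-5p, and are 2 of the 577 miRNAs on the array. Each is read by 2 probes, and every probe is described. The cells were grown from the bone marrow of Balb/c mice, and small RNAs were hybridised to 16 one-colour arrays, 4 for each of 4 groups. All cultures received IL-3 at 5 ng/ml and stem cell factor (SCF) at 20 ng/ml. Progenitors were cells positive for c-kit, the SCF receptor, separated on a magnetic column from such cultures on day 6. BMMC, bone marrow-derived mast cells, were immature mast cells after 4 weeks of culture. MMC, mucosal-type mast cells, were BMMC kept for 5 more days with IL-9 and TGF-beta added. IgE-crosslinked BMMC were sensitised with an anti-DNP IgE and then given DNP antigen for 2 hours. No group was described as kept for those days without IL-9 and TGF-beta, or sensitised without antigen, so these steps cannot be told apart from the time or the IgE that came with them. The submitters call the arrays of a group biological replicates. No label ties a replicate to a mouse or a culture of its own. The p-values therefore cover the spread among these arrays alone, part of which may be technical.

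MicroRNAs silence mRNAs that match their seed, the bases 2 to 8 from the 5′ end. The miR-34 genes are direct transcriptional targets of p53, the tumour suppressor that is stabilised by DNA damage and other stress, and their products lower regulators of the cell cycle and of survival such as cyclin-dependent kinases and Bcl2. MiR-34a comes from a gene of its own and is found in many tissues. MiR-34b and miR-34c come from a shared transcript and, with the related miR-449 genes, are best known from ciliated epithelia.

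The mature sequences are shown because the shared seed defines the family. They are from RefSeq on GRCm38.p6, with the seed in capitals. RefSeq held 6 of the 8 family miRNAs of the array. The other two were miR-34c, the 5p arm, and miR-449b.
mmu-miR-34a-5p: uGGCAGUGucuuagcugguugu
mmu-miR-34b-5p: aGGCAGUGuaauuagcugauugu
mmu-miR-449a-5p: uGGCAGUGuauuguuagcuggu
mmu-miR-449c-5p: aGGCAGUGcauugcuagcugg
mmu-miR-34b-3p: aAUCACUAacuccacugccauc
mmu-miR-34c-3p: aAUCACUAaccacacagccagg
Of the 1679 mature miRNA names in the RefSeq table, 4 carry the seed GGCAGUG, and these are the first 4 shown. The remaining pair are the opposite arms of the miR-34b and miR-34c hairpins, which share a different seed. MiR-34a and miR-34b-5p differ by 4 edits (substitutions, insertions or deletions) over their whole length, against 6 or 7 edits between either of them and miR-449a or miR-449c. On GRCm38.p6, mature miR-34a lies at chr4:150068473-150068494 on the plus strand, and its gene Mir34a overlaps no other gene of the RefSeq table. Mature miR-34b-5p lies at chr9:51103610-51103632 on the minus strand. Its gene, Mir34b, and Mir34c both lie within the spans of 2 other genes, Hoatz and Btg4.

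The probes of each miRNA end at the same base, taken as the 3′ end of the miRNA. They differ by 1 base in how far they reach toward the 5′ end. The windows are shown because the probes of miR-34b-5p gave different answers. Capitals mark the bases that a probe covers, with the length from the array design's coordinates on mm9 and the 3′ end as the anchor. For miR-34b-5p this anchor was checked on other miRNAs of the same chromosome, and for miR-34a it was not.
miR-34a, 19-base probe: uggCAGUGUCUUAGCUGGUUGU
miR-34a, 20-base probe: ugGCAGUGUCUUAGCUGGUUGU
miR-34b-5p, 21-base probe: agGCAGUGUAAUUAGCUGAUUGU
miR-34b-5p, 22-base probe: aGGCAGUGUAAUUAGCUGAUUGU
In mm9 coordinates the miR-34a probes cover chr4:149442585-149442603 and chr4:149442584-149442603, and the miR-34b-5p probes cover chr9:50911715-50911735 and chr9:50911715-50911736. Each probe was printed as 10 spots on every array. For both miRNAs the longer probe was the brighter one and stands for the miRNA below, unless the shorter one is named.

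Signal depth differed between groups although 100 ng of total RNA was labelled for each array. The 75th percentile of the unscaled signal, taken over the 205 probes well above background on all arrays, was 1299 to 1759 in BMMC and 717 to 863 in MMC, but 342 to 440 in progenitors and 311 to 419 in IgE-crosslinked BMMC. Levels below are therefore scaled signals, each array divided by this percentile, on the log2 scale, with lower values raised to a floor at 3.56. The arrays lay on 2 slides, with 2 arrays of each group on each, and 0 of 217 fitted miRNAs differed between slides in limma at an adjusted p under 0.05 (9 at an unadjusted p under 0.05). Progenitor replicate 4 stood apart, with a mean correlation of 0.940 with the other progenitor arrays against 0.972 to 0.974 for these, so results against progenitors are also given without it.

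MiR-34a was well above background on all 16 arrays. Its unscaled signal was 28.8, 26.1, 41.2 and 64.3 in progenitor replicates 1 to 4. In BMMC it was 949.9, 1263, 1117 and 1104, in MMC 610.0, 461.6, 591.4 and 574.4, and in IgE-crosslinked BMMC 265.2, 280.1, 180.4 and 337.7. Every mast cell array was brighter than every progenitor array before any scaling, although the signal of the IgE-crosslinked arrays as a whole was as low as that of the progenitors. After scaling, the log2 levels were 5.43, 5.60, 6.30 and 6.58 in progenitors. They were 8.54, 8.87, 8.84 and 9.12 in BMMC, 8.85, 8.72, 9.00 and 8.90 in MMC, and 8.69, 8.82, 8.57 and 9.08 in IgE-crosslinked BMMC. The 3 mast cell groups overlapped one another, and the highest progenitor, replicate 4, lay below the lowest mast cell array.

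MiR-34b-5p was well above background on every mast cell array but on only 2 of the 4 progenitor arrays, replicates 1 and 3. The unscaled signal was 13.1, 8.62, 18.5 and 18.7 in progenitors and 265.6, 369.8, 326.5 and 321.6 in BMMC. It was 175.0, 131.8, 167.1 and 157.8 in MMC and 74.5, 78.9, 77.0 and 98.5 in IgE-crosslinked BMMC. As for miR-34a, no mast cell array was as low as any progenitor array. On the scaled log2 scale the progenitors were at 4.30, 4.00, 5.14 and 4.80. BMMC were at 6.70, 7.10, 7.07 and 7.34, MMC at 7.05, 6.91, 7.18 and 7.03, and IgE-crosslinked BMMC at 6.86, 6.99, 7.34 and 7.30. The mast cell groups again overlapped and the progenitors lay apart below them.

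**Figure D1:**
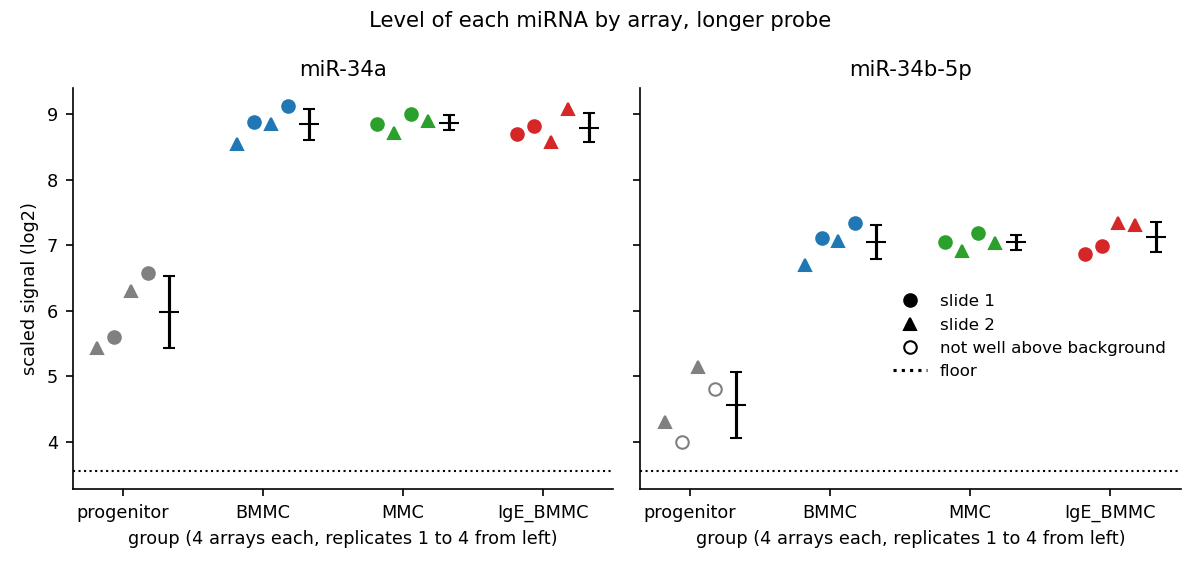
The y axis is the log2 scaled signal of the longer probe, and the x axis holds the 4 groups with their 4 arrays each (IgE_BMMC marks IgE-crosslinked BMMC). Bars are the mean and SD, open symbols are arrays where the probe was not well above background, and the dotted line is the floor at 3.56. All 12 mast cell arrays sit above all 4 progenitor arrays for both miRNAs.

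The first comparison was of BMMC at 4 weeks with the progenitors separated on day 6. No label ties a BMMC array to a progenitor array. MiR-34a rose from 5.97 ± 0.55 (SD, n = 4) to 8.84 ± 0.24 (SD, n = 4), a log2 difference of 2.87 (SE 0.22, 95% interval 2.39 to 3.35) or 7.31-fold, with an adjusted p of 5.56e-08 in limma. MiR-34b-5p rose from 4.56 ± 0.51 to 7.05 ± 0.26 (SD, n = 4), a log2 difference of 2.49 (SE 0.22, 95% interval 2.03 to 2.96) or 5.63-fold, with an adjusted p of 1.75e-07 in limma. The fold of miR-34b-5p is set against a progenitor mean of which 2 of 4 arrays were not well above background, and it passed the filter on dim miRNAs through the mast cell groups alone, so its size is less sure than that of miR-34a. Both were higher in 4 of 4 BMMC arrays than in any progenitor array. The background of such calls was high: 66.4% of the 217 miRNAs tested were called in either direction, 21.2% were called higher, and in 56.7% the groups did not overlap. The median difference of the 217 miRNAs was -0.30, and in this setting the rise of miR-34a ranked 1 among them. The exact two-sided permutation test gave p = 0.0286 for each, the smallest that the 70 arrangements of 4 against 4 arrays allow. Adjusted over the 12 comparisons of the pair, this permutation p was 0.0571, above 0.05. The adjusted value depends on how many of the 12 reached the smallest p, so it is no fixed limit.

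The rise was present on both slides and without the progenitor array that stood apart. For miR-34a the difference was 2.91 on slide 1 and 2.83 on slide 2, and for miR-34b-5p it was 2.82 and 2.16. Without progenitor replicate 4 the differences were 3.34 for miR-34a and 2.84 for miR-34b-5p. The size depended on the processing. Without scaling between arrays the rise of miR-34a was 4.88 on the log2 scale, and under normexp background correction, which adds an offset of 50 to every signal, it was 1.66. Over the same settings the median of all miRNAs moved from 1.38 to -1.34. Relative to that median, miR-34a was higher by 3.50 and 3.00, against 3.17 in the main setting. For miR-34b-5p, whose progenitor signals lay far below that offset, the values were 4.45 without scaling and 0.43 under normexp, or 3.07 and 1.77 relative to the median, against 2.79 in the main setting. MiR-34a and miR-34b-5p were both called higher in each of these fits. Under normexp not every miRNA moved with the median. MiR-29b was at 1.41 and miR-15a at 0.45 both there and in the main setting, while miR-141 went from 0 to -1.72. The values relative to the median therefore do not show whether the smaller rise under normexp was shared.

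**Figure D2:**
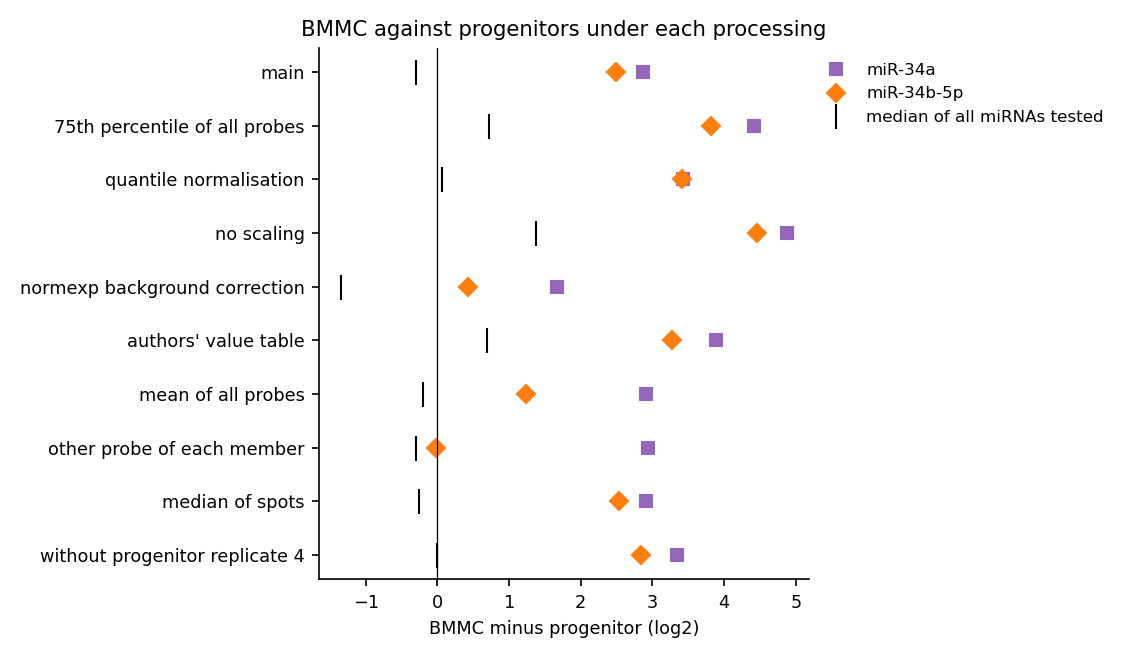
The x axis is the log2 difference of BMMC minus progenitors and the y axis the processing setting. Squares are miR-34a, diamonds miR-34b-5p, and black bars the median of all miRNAs tested. MiR-34a stays between 1.66 and 4.88, while miR-34b-5p falls to 0.43 under normexp and to -0.02 with its shorter probe.

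The same progenitor arrays were then set against the other mast cell groups, so these differences are not independent of the first. MiR-34a was higher than in progenitors by 2.89 in MMC and by 2.82 in IgE-crosslinked BMMC on the log2 scale, or 7.43-fold and 7.04-fold (limma, SE 0.22, adjusted p of 4.10e-08 and 5.42e-08). MiR-34b-5p was higher by 2.48 and 2.56, or 5.59-fold and 5.91-fold (limma, SE 0.22, adjusted p of 1.53e-07 and 1.04e-07), with the same limit of 2 progenitor arrays not well above background. Without progenitor replicate 4 the differences of MMC were 3.25 for miR-34a and 2.72 for miR-34b-5p, and those of IgE-crosslinked BMMC were 3.28 and 2.91. In MMC against progenitors, 73.0% of the 189 miRNAs tested were called in either direction and 29.6% were called higher, and the groups did not overlap in 67.7%. For IgE-crosslinked BMMC these shares were 79.5%, 28.4% and 68.8% of 176 miRNAs. On slides 1 and 2 the MMC differences were 2.84 and 2.94 for miR-34a and 2.72 and 2.25 for miR-34b-5p. The IgE-crosslinked differences were 2.67 and 2.96 for miR-34a and 2.53 and 2.60 for miR-34b-5p. Each exact permutation p was again 0.0286, or 0.0571 adjusted.

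MMC were compared with BMMC to ask what the mucosal cytokines changed. Neither miRNA passed the test, where 20.8% of the 207 miRNAs tested did. The log2 difference of MMC minus BMMC was 0.02 for miR-34a (95% interval -0.46 to 0.50, limma adjusted p of 1) and -0.01 for miR-34b-5p (95% interval -0.48 to 0.46, limma adjusted p of 1). With 4 arrays a group, these intervals leave room for a change of either sign, and no detection limit was computed. Without scaling, the differences were -0.99 for miR-34a and -1.02 for miR-34b-5p, where the median of all miRNAs was -0.86. Both passed the test (limma adjusted p of 0.00185 and 0.00014), as did most of the 207 miRNAs in that setting. Within slides, the differences were -0.07 and 0.12 for miR-34a and -0.10 and 0.09 for miR-34b-5p.

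IgE-crosslinked BMMC were compared with BMMC to ask what 2 hours of antigen changed. Neither miRNA passed, where 25.6% of 207 miRNAs did. MiR-34a differed by -0.05 (95% interval -0.53 to 0.43) and miR-34b-5p by 0.07 (95% interval -0.39 to 0.54) on the log2 scale, each with a limma adjusted p of 1. Without scaling the differences were -2.09 and -1.96, beside a median of -1.83 for all miRNAs, and both passed the test (limma adjusted p of 5.13e-07 and 4.86e-08). Under normexp, miR-34b-5p was higher by 0.45 (limma adjusted p of 0.00163), beside a median of 0.92. In each of these 2 settings most of the 207 miRNAs passed as well. The slides gave opposite signs for both miRNAs, with -0.24 and 0.13 for miR-34a and -0.29 and 0.44 for miR-34b-5p. Between MMC and IgE-crosslinked BMMC the differences were 0.08 (95% interval -0.40 to 0.56, adjusted p of 0.824 in limma) and -0.08 (95% interval -0.55 to 0.39, adjusted p of 0.820 in limma), where 31.0% of 174 miRNAs were called. Without scaling these were 1.101 and 0.94, beside a median of 0.94, and passed, as did miR-34b-5p at -0.30 under normexp beside a median of -0.34. Most of the 174 miRNAs passed in both settings.

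**Figure D3:**
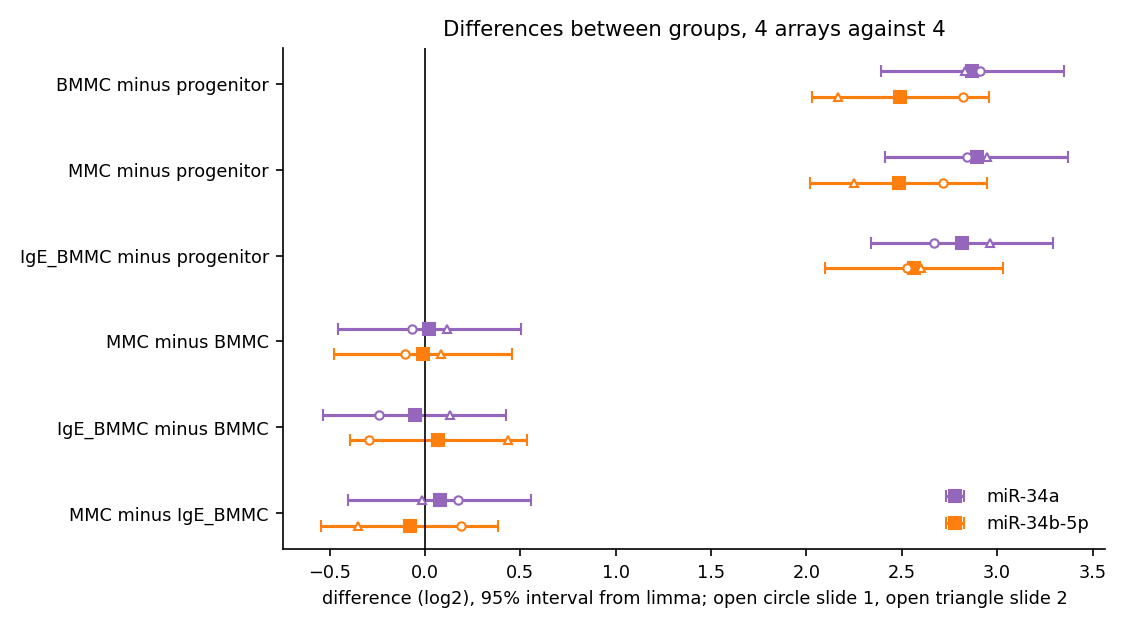
The x axis is the log2 difference and the y axis the 6 comparisons of 4 arrays with 4. Squares are the limma estimates with 95% intervals, open circles slide 1 and open triangles slide 2. The 3 comparisons with progenitors lie between 2.48 and 2.89, and the intervals of the other 3 all include 0.

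In order of mean scaled level, miR-34a ran from MMC (8.87 ± 0.12) over BMMC (8.84 ± 0.24) and IgE-crosslinked BMMC (8.79 ± 0.22) to progenitors (5.97 ± 0.55), each SD over n = 4 arrays. MiR-34b-5p ran from IgE-crosslinked BMMC (7.12 ± 0.24) over BMMC (7.05 ± 0.26) and MMC (7.04 ± 0.11) to progenitors. Among the mast cell groups no neighbours in either order differed beyond their spread. Over the 12 mast cell arrays the SD was 0.18 for miR-34a and 0.20 for miR-34b-5p, beside a median SD of 0.20 over the 217 fitted miRNAs. The pair thus varied across the mast cell states about as much as the median miRNA. The wider spread lay within the progenitors, where replicates 3 and 4 were above replicates 1 and 2 for both miRNAs.

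The probes of miR-34a gave closely similar differences. Its 19-base probe was well above background on all 16 arrays and rose by 2.94 from progenitors to BMMC, against 2.87 for the 20-base probe. Replicate spots of a probe usually had a coefficient of variation (CV) near 9%, the median over the arrays. On IgE-crosslinked BMMC replicate 3 the CV was 47.1% for the shorter and 60.2% for the longer probe. The 10 spots of the longer probe on that array ran from 0.0852 to 289 in unscaled signal with a median of 235, and none was marked as an outlier by the scanner software. This array had the lowest miR-34a level of its group. With the median of spots in place of the mean, an alternative chosen after seeing the data, IgE-crosslinked BMMC minus progenitor was 2.92 for miR-34a in place of 2.82, and minus BMMC it was 0.01 in place of -0.05.

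The probes of miR-34b-5p did not show the same change. The 21-base probe was well above background on the 4 BMMC arrays, with unscaled signals of 13.5, 19.0, 18.3 and 20.1, and on 0 of the other 12. Its unscaled signals were 4.90, 1.54, 6.48 and -0.38 in progenitors, 7.75 to 11.4 in MMC and 5.02 to 5.84 in IgE-crosslinked BMMC. The BMMC arrays were thus the highest before scaling, but not after it. Scaled but not yet raised to the floor of 11.8, the signals were 5.29 to 10.1 in BMMC and -0.56 to 12.4 in progenitors. They were 6.89 to 9.45 in MMC and 8.11 to 11.6 in IgE-crosslinked BMMC. Nearly all values of this probe thus fell to the floor, and its BMMC minus progenitor difference was -0.02 (limma adjusted p of 0.426). The fall to the floor leaves no measured difference on this probe, so the rise of miR-34b-5p rests on the 22-base probe. Whether the 22-base probe also reads miR-34a, which differs from miR-34b-5p by 4 edits, was not tested. The rises of the pair are therefore not shown to be independent. With the mean of both probes the rise was 1.24.

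**Figure D4:**
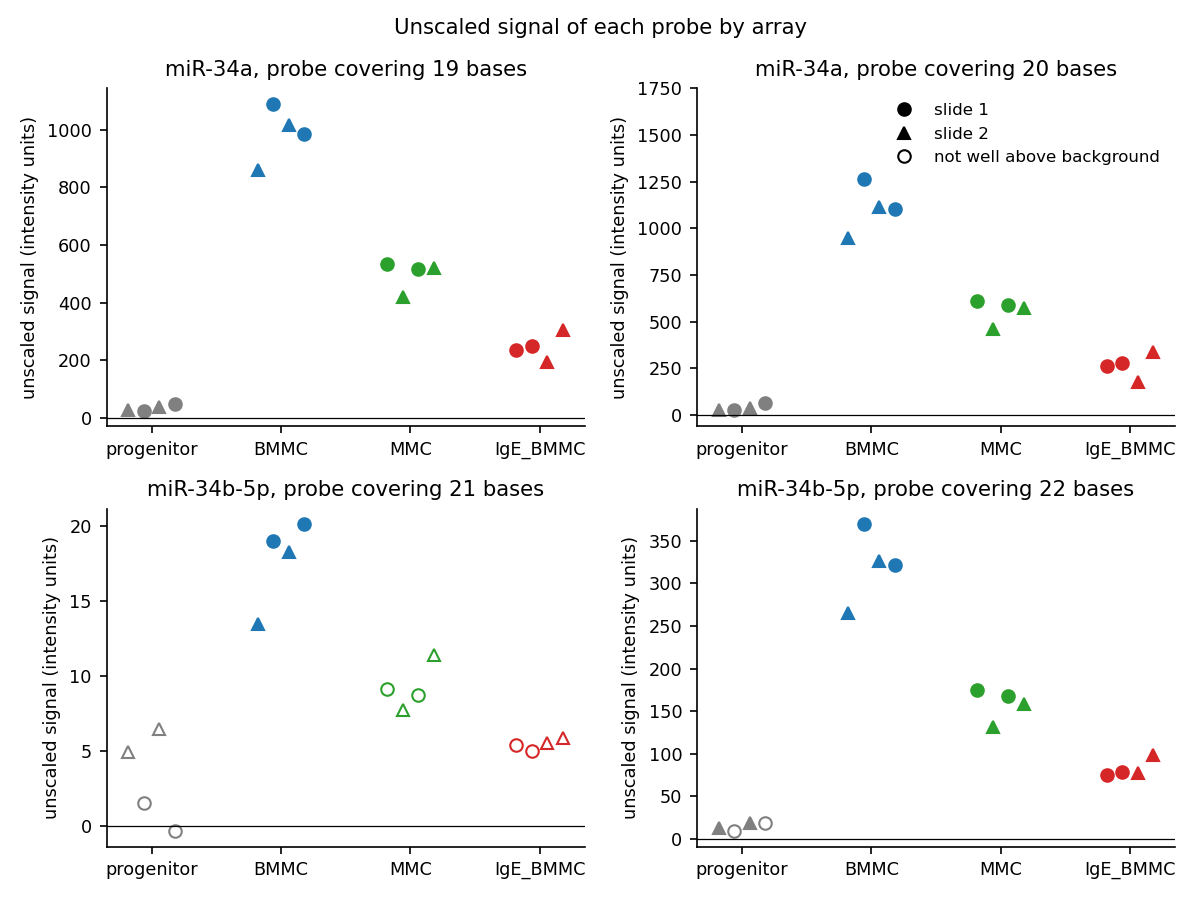
Each panel plots 1 probe, with the unscaled signal in intensity units on the y axis and the groups on the x axis. Open symbols are arrays where the probe was not well above background, circles are slide 1 and triangles slide 2. Both miR-34a probes and the 22-base miR-34b-5p probe are well above background in all mast cell groups, the 21-base probe only in BMMC.

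The other family members were also read on this array. The 16 probes of the 6 miRNAs miR-34b-3p, miR-34c, miR-34c* (the 3p arm shown above), miR-449a, miR-449b and miR-449c were well above background on 0 of 16 arrays. Their unscaled signals lay between -3.05 and 8.28 on the arrays other than progenitor replicate 4, and between -22.5 and 38.7 with it. MiR-34c, which is cut from the same transcript as miR-34b, and miR-34b-3p, the other arm of the miR-34b hairpin, were thus not well above background on the arrays where miR-34b-5p was. Not well above background gives only a bound: no level and no change can be stated for them. Probes of different miRNAs are not compared in level here.

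The miRNAs whose levels were most like the pair were the same for both. Over the 16 arrays, the closest to miR-34a was miR-34b-5p (Pearson r = 0.986), followed by miR-29b (0.979), miR-27b (0.948), miR-29c (0.936) and miR-22 (0.934). For miR-34b-5p, after miR-34a, these were miR-29b (0.982), miR-27b (0.963), miR-29c (0.947) and miR-22 (0.941). These values describe mainly the gap between progenitors and mast cells, which all these miRNAs share, with log2 rises to BMMC of 1.41 for miR-29b, 0.97 for miR-27b, 1.23 for miR-29c and 1.51 for miR-22. Within the 12 mast cell arrays, the correlation of the pair was 0.60. The other likenesses differed between the members there. The r with miR-34a was -0.23 for miR-29b, -0.01 for miR-27b, -0.20 for miR-29c and -0.05 for miR-22, and the highest was 0.78, for miR-29c* (0.14 over 16 arrays). With miR-34b-5p it was 0.27 for miR-29b, 0.46 for miR-29c and 0.27 for miR-22, and the highest was 0.64, for miR-27b. All values on an array share its scale factor, so these correlations are given as descriptions only.

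Other miRNAs tied to p53 were read from a list of 14. In human cells, miR-192, miR-194, miR-215, miR-107, miR-22, miR-200c and miR-141 are induced by p53, miR-16, miR-143 and miR-145 are matured faster with its help, miR-15a shares a transcript with miR-16, and the miR-29 family acts on p53 through its regulators. From progenitors to BMMC, 11 of the 14 were tested, 6 were called higher, 2 lower and 3 not at all, beside 21.2% called higher and 45.2% called lower of all 217 miRNAs. The median of the list was 0.45, beside -0.30 over all miRNAs. MiR-22 rose by 1.51, miR-29b by 1.41, miR-29c by 1.23 and miR-29a by 1.02 on the log2 scale, and miR-15a and miR-107 by 0.45 each. These counts depended on the scaling. With the percentile of all probes and under quantile normalisation 8 were called higher and 0 lower, 9 and 0 in the authors' deposited table, without scaling 11 and 0, and under normexp 6 and 4. In these settings, in that order, the median over all miRNAs was 0.72, 0.064, 0.69, 1.38 and -1.34. The shares of all miRNAs called there are not set beside these counts, so they are not read as results about the list.

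MiR-16 fell by 0.19 (limma adjusted p of 0.00195), but this depended on scaling. It was higher by 0.34 under quantile normalisation and by 1.36 with the percentile of all probes, and 0.06 without progenitor replicate 4 (limma adjusted p of 0.361). MiR-194 was called lower, at -0.17, but was well above background on 0 of 4 progenitor arrays and close to the floor in BMMC, so no fall was measured. MiR-192, miR-200c and miR-141 were well above background on the BMMC arrays alone and lay at the floor there after scaling. MiR-215, miR-143 and miR-145 were not well above background on any array. Without progenitor replicate 4, 6 members were called higher and 0 lower.

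Among the mast cell groups few members of the list were called in the main setting. From BMMC to MMC, 1 of 11 tested was called higher, miR-22 by 0.47, and 1 lower, miR-16 by -0.21, beside 16.9% called higher and 3.86% called lower of all miRNAs tested. From BMMC to IgE-crosslinked BMMC, miR-22 alone of the 11 was called, higher by 0.72, beside 18.4% higher and 7.25% lower of all. MMC were lower than IgE-crosslinked BMMC in 1 of 7, miR-22 by -0.25, beside 12.6% called lower of all. With the percentile of all probes MMC minus BMMC gave 0 higher and 1 lower, with 0 and 0 in the authors' deposited table, and the calls of miR-22 and miR-16 were lost in both. With the percentile of all probes the miR-22 call in IgE-crosslinked BMMC was lost too (0 higher, 1 lower). Without scaling, 11 of 11 were called lower in MMC and 11 of 11 in IgE-crosslinked BMMC, and 7 of 7 higher in MMC than in IgE-crosslinked BMMC. The medians of all miRNAs were -0.86, -1.83 and 0.94 there. Under normexp, 5 were called higher and 1 lower against BMMC in each, beside medians of 0.57 and 0.92. In both settings most of all miRNAs tested were called. Without progenitor replicate 4, 4 of 7 were called lower in MMC than in IgE-crosslinked BMMC, beside 95 of all 174 miRNAs called in either direction. The mean scaled level of miR-22 was 8.55 in progenitors and 10.07 in BMMC, then 10.54 in MMC and 10.79 in IgE-crosslinked BMMC. Of the 7 tested against progenitors in the other mast cell groups, 6 were called higher and 1, miR-16, lower, in MMC and in IgE-crosslinked BMMC, with list medians of 0.85 and 1.02 beside -0.15 and -0.39 over all miRNAs. The call of miR-16 was lost in both groups under quantile normalisation (6 higher, 0 lower), and with the percentile of all probes 7 of 7 were called higher. In IgE-crosslinked BMMC it was also lost without progenitor replicate 4 (6 higher, 0 lower), while in MMC it was not (6 higher, 1 lower). Of all miRNAs tested against progenitors, 29.6% were called higher and 43.4% lower in MMC. In IgE-crosslinked BMMC these shares were 28.4% and 51.1%.

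Markers of other cell types moved with the contrast in which the pair rose. MiR-223, of granulocytes and monocytes, had a summed scaled signal of 4209 to 7271 in progenitors, against 143.8 to 200 in MMC, 244 to 379 in BMMC and 302 to 500 in IgE-crosslinked BMMC. Of 3 erythroid and megakaryocytic markers, miR-451 alone was well above background in progenitors, on 4 of 4 arrays, and the list summed to 128 to 254 there, against 9.39 to 24.0 in mast cells. MiR-486 of the same list was well above background on 0 of 4 progenitor arrays but on 4 of 4 arrays of BMMC and of MMC, with log2 levels of 3.96 ± 0.60 in progenitors, 3.57 ± 0.03 in BMMC and 4.11 ± 0.26 in MMC (SD, n = 4), and on 0 of 4 IgE-crosslinked arrays. All 3 stem cell and endothelial markers (miR-126-3p, miR-10a and miR-196b) were well above background in progenitors, and miR-10a alone in the mast cell groups. Their sums were 99.4 to 202 in progenitors and 18.1 to 35.2 in mast cells. The sums of these 3 lists were lower in every mast cell array than in any progenitor array. The same held for the summed arms of miR-142, found in all blood cells, with 14840 to 16356 in progenitors and 6998 to 12542 in mast cells. Of all miRNAs tested against progenitors, the groups did not overlap in 56.7% (BMMC), 67.7% (MMC) and 68.8% (IgE-crosslinked BMMC). The part of these lists in the result was not tested. In bulk RNA, fewer cells of a type and less RNA per cell cannot be told apart.

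Other marker lists were read as well, and the cell source of the pair was not tested. The list for ciliated epithelium held miR-449a and miR-34c, which were well above background on 0 of 16 arrays. Both are the relatives of the pair described above, so they are no separate marker of that tissue. Of the 4 stromal markers on the array out of 5 listed, miR-143, miR-145 and miR-214 lay at the floor on all arrays, and miR-152 was well above background in BMMC and MMC with a summed scaled signal of the list of at most 18.6. The lymphoid marker miR-150 summed to 16.1 to 44.9 in progenitors and to 8.82 to 26.8 in mast cells. It was well above background on 0 of 4 progenitor arrays, but on 4 of 4 BMMC, 1 of 4 MMC and 3 of 4 IgE-crosslinked BMMC arrays. Its sums therefore give no direction of change. Both arms of miR-142 were well above background on every array, with their sums given above. No miRNA marker of mast cells themselves was in these lists, so the mast cell label was not checked directly.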

How the data were processed

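Feature Extraction 9.5.1.1 read the scans, per the file headers. The deposited spot values are linear intensities after background subtraction, and the arrays were not scaled to each other (unit: intensity). The authors' deposited value table holds log2 values centred per miRNA, with its scaling not given in the sources used here, and served as an alternative.

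From the spots, control and outlier spots were dropped, spots of a probe averaged, and arrays scaled to the 75th percentile over 205 probes. A floor of 11.8 was set, log2 taken, and the brightest probe used. A miRNA was fitted if it was well above background (most of its spots marked so) on 3 or more arrays of any group, a condition met by 217 of 577. One model with a coefficient per group was fitted over 16 arrays with limma 3.58.1, with Benjamini-Hochberg adjustment over all miRNAs tested, and called at an adjusted p under 0.05. The fit was tested on simulated data. The number of arrays limits the precision. Named miRNAs were the pair, its family, the 5 fitted miRNAs most correlated with each, a list of 14 p53-linked miRNAs and marker lists. These members and lists were chosen with earlier results of these data known. Same-numbered replicates were checked for pairing: of 24 pairs, 8 had deviations correlated over 0.1 (range -0.41 to 0.47). Arrays of different numbers were not compared in this way, so the check cannot decide whether the numbers pair the arrays. The main fit treated the arrays as unpaired. Alternatives changed the scaling, background correction, floor, filter, probe summary, slide and replicate block and source of values, left out each array, or used an exact permutation test.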

Additional observations from a re-analysis of the deposited data

Results flagged for a closer look

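Values far from the other 3 of their group were found in 14 of the 80 groups of 4 arrays that were looked at, one for each family probe and group. By chance about 1 in 20 groups gives such a value. Of the 14, 11 came from progenitor replicate 4, among 20 progenitor groups, and all 11 were of family members that were not well above background. On that array the unscaled signals of the miR-34b-3p probes were 36.6 and 38.7, those of miR-34c* were -18.2 and -16.5, and that of 1 miR-449a probe was -9.66. There, 3 miR-449b probes read -14.3, -15.9 and -17.0, and 3 miR-449c probes read -22.0, -22.5 and -19.5. On the other progenitor arrays these probes lay between -3.03 and 1.87.

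Of the remaining 3, the 19-base probe of miR-34a read 418 in MMC replicate 2, where the other MMC arrays read 516 to 534. One miR-34b-3p probe read 2.97 in MMC replicate 3, and one miR-449c probe read 0.551 in BMMC replicate 2, both within the background.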

How the results depend on the processing

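The differences of both miRNAs from progenitors kept their direction and their call in every limma fit that used the longer probe. Leaving out 1 array at a time, they ranged from 2.68 to 3.34 (miR-34a) and 2.31 to 2.84 (miR-34b-5p) for BMMC, 2.71 to 3.25 and 2.30 to 2.72 for MMC, and 2.63 to 3.28 and 2.38 to 2.91 for IgE-crosslinked BMMC. The shorter probe put miR-34b-5p at -0.018 in all 3, at the floor, and passed the filter for a test in BMMC minus progenitor alone. Under the exact permutation test each of the 6 differences had p = 0.0286, the least it can give, and an adjusted p of 0.0571. These differences were 2.87, 2.89 and 2.82 for miR-34a and 2.49, 2.48 and 2.56 for miR-34b-5p.

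Differences among mast cell groups were near 0, and their sign was not stable. Leaving out 1 array, MMC minus BMMC ranged from -0.094 to 0.11 (miR-34a) and -0.13 to 0.085 (miR-34b-5p), IgE-crosslinked BMMC minus BMMC from -0.15 to 0.037 and -0.046 to 0.17, and MMC minus IgE-crosslinked BMMC from -0.033 to 0.17 and -0.19 to 0.018. For miR-34a, MMC minus BMMC was -0.35 with the percentile of all probes, -0.99 without scaling, -0.060 under quantile normalisation, -0.11 in the authors' deposited table and -0.00036 with spot medians. Its IgE-crosslinked minus BMMC value was -2.09 without scaling, 0.013 under normexp, 0.016 with the shorter probe and 0.011 with spot medians. Its MMC minus IgE-crosslinked value was -0.068 with the percentile of all probes, 1.101 without scaling, -0.097 in the authors' deposited table and -0.011 with spot medians. For miR-34b-5p, MMC minus BMMC was -1.02 without scaling and 0.15 under normexp. Its IgE-crosslinked minus BMMC value was -0.15 with the percentile of all probes, -1.96 without scaling, 0.45 under normexp, and -0.29 and 0.44 within slides 1 and 2. Its MMC minus IgE-crosslinked value was 0.94 without scaling, -0.30 under normexp, and 0.19 and -0.35 within slides. Without scaling, and under normexp for miR-34b-5p where IgE-crosslinked BMMC were compared, these passed the test. Most miRNAs tested did so in these settings, and the cause was not tested.

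The replicate block left every difference and call of the pair as it was (2.87 for miR-34a and 2.49 for miR-34b-5p in BMMC minus progenitor), and called 138 miRNAs there against 144. Calls over all miRNAs moved by more than 1.5 times in the mast cell comparisons. For MMC minus BMMC there were 43, but 22 with the percentile of all probes, 150 without scaling, 153 under normexp, 10 in the authors' deposited table and 65 with only the groups compared. IgE-crosslinked minus BMMC gave 53, but 196, 168 and 26 without scaling, under normexp and in that table, and 30 without a filter, 33 without BMMC replicate 2 and 34 without IgE-crosslinked BMMC replicate 2. MMC minus IgE-crosslinked gave 54, but 157, 132 and 33, and 95 without progenitor replicate 4.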
